A study of Bubalus bubalis with 36 samples.

Results

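The miRNAs described here come from the imprinted DLK1-DIO3 region and lie, in mammals where the region has been mapped, around RTL1 and MEG8, outside the large miR-379 to miR-656 cluster. They were chosen by name, with earlier results of these data known. The rule took rows called bta-miR- (the bovine name given to a buffalo sequence) for miR-127, miR-136, miR-337, miR-370, miR-431, miR-432, miR-433, miR-493 and miR-665, with any arm suffix. Of these 9 names 8 had a row, 1 row each and none with an arm suffix, so the group holds 8 of the 1682 features counted, of which 695 carry a bovine miRNA name and 987 are candidate loci without one. miR-337 was not analysed here.

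In imprinted regions a gene is read from the chromosome of 1 parent. In the DLK1-DIO3 region the protein-coding genes DLK1, RTL1 and DIO3 are read from the paternal chromosome, and the long noncoding RNAs MEG3 and MEG8, with the miRNAs described here, from the maternal one. DLK1 is known as an inhibitor of adipocyte differentiation, and in sheep the callipyge mutation of this region gives enlarged hindquarter muscle. The RefSeq gene table of the buffalo assembly NDDB_SH_1 places DLK1, RTL1 and DIO3 in that order on 1 chromosome. It lists no miRNA genes, so the order of the miRNAs is taken from other mammals: miR-493 and miR-665 between MEG3 and RTL1, then miR-431, miR-433, miR-127, miR-432 and miR-136 on the strand opposite RTL1, then miR-370 toward MEG8.

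Small RNA was sequenced from the adipose tissue of 6 buffaloes (Bubalus bubalis), with 6 depots per animal and 36 libraries in all. Subcutaneous fat was taken at the back (BSAT), over the sternum (SSAT) and at the groin (IAT, inguinal). Visceral fat came from the omentum (OAT), the pericardium (PCAT) and around the kidney (PRAT, perirenal), with 6 libraries per depot. Weaning was at 3 months, fattening began at 15 months and slaughter was at 20 months in all animals, with no other treatment named in the labels. The series was designed to set subcutaneous against visceral depots.

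Library totals ran from 9484589 to 13920998 counts, with 867 to 1052 features detected per library. The adipose-enriched miRNAs miR-103, miR-107, miR-143, miR-193b, miR-365 and miR-378 were present in every depot, with a summed level of 8403 to 91774 CPM per library. Most of this sum was miR-143 (mean 28569 CPM), which is also on the smooth muscle and stroma list used below, so the sum is not specific to adipocytes. miR-378 averaged 1865 CPM, miR-103 532 CPM, miR-193b 36.9 CPM and miR-107 4.94 CPM, with miR-107 at 0 in 2 libraries. CPM are counts scaled to a common library total with TMM factors, which correct the totals for composition. Some library names end in the letter A (8 libraries, 7 visceral and 1 subcutaneous) and the others in B, and what the letter stands for is not given, so results are also given for the B libraries alone where they differ. The libraries of 1 animal share that animal, and replicates of a depot are different animals.

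The group as a whole took 0.350% to 6.00% of the counts of a library. By depot the share averaged 4.66% ± 1.12 in PCAT, 3.16% ± 1.59 in OAT, 3.11% ± 0.898 in IAT, 1.81% ± 0.746 in PRAT, 1.73% ± 0.719 in BSAT and 0.990% ± 0.463 in SSAT (SD, n = 6 each). Nearly all of this was miR-127, which held 98.3% of the group's counts and ranked between 3 and 44 among all features of a library. Over 36 libraries miR-432 had 117145 counts, miR-493 had 46964, miR-136 had 26979, miR-433 had 5975, miR-370 had 3712 and miR-431 had 331. miR-665 had 3 counts in all, 1 each in IAT4, PCAT6 and PRAT2, where the number is that of the animal. It was at 0 in the other 33 libraries, where a count of 0 allows up to 0.216 to 0.316 CPM (3 counts, counting error only), and no difference between depots was detectable at this depth. The other 7 members passed the filter on low counts and were tested with 660 other features.

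**Figure D1:**
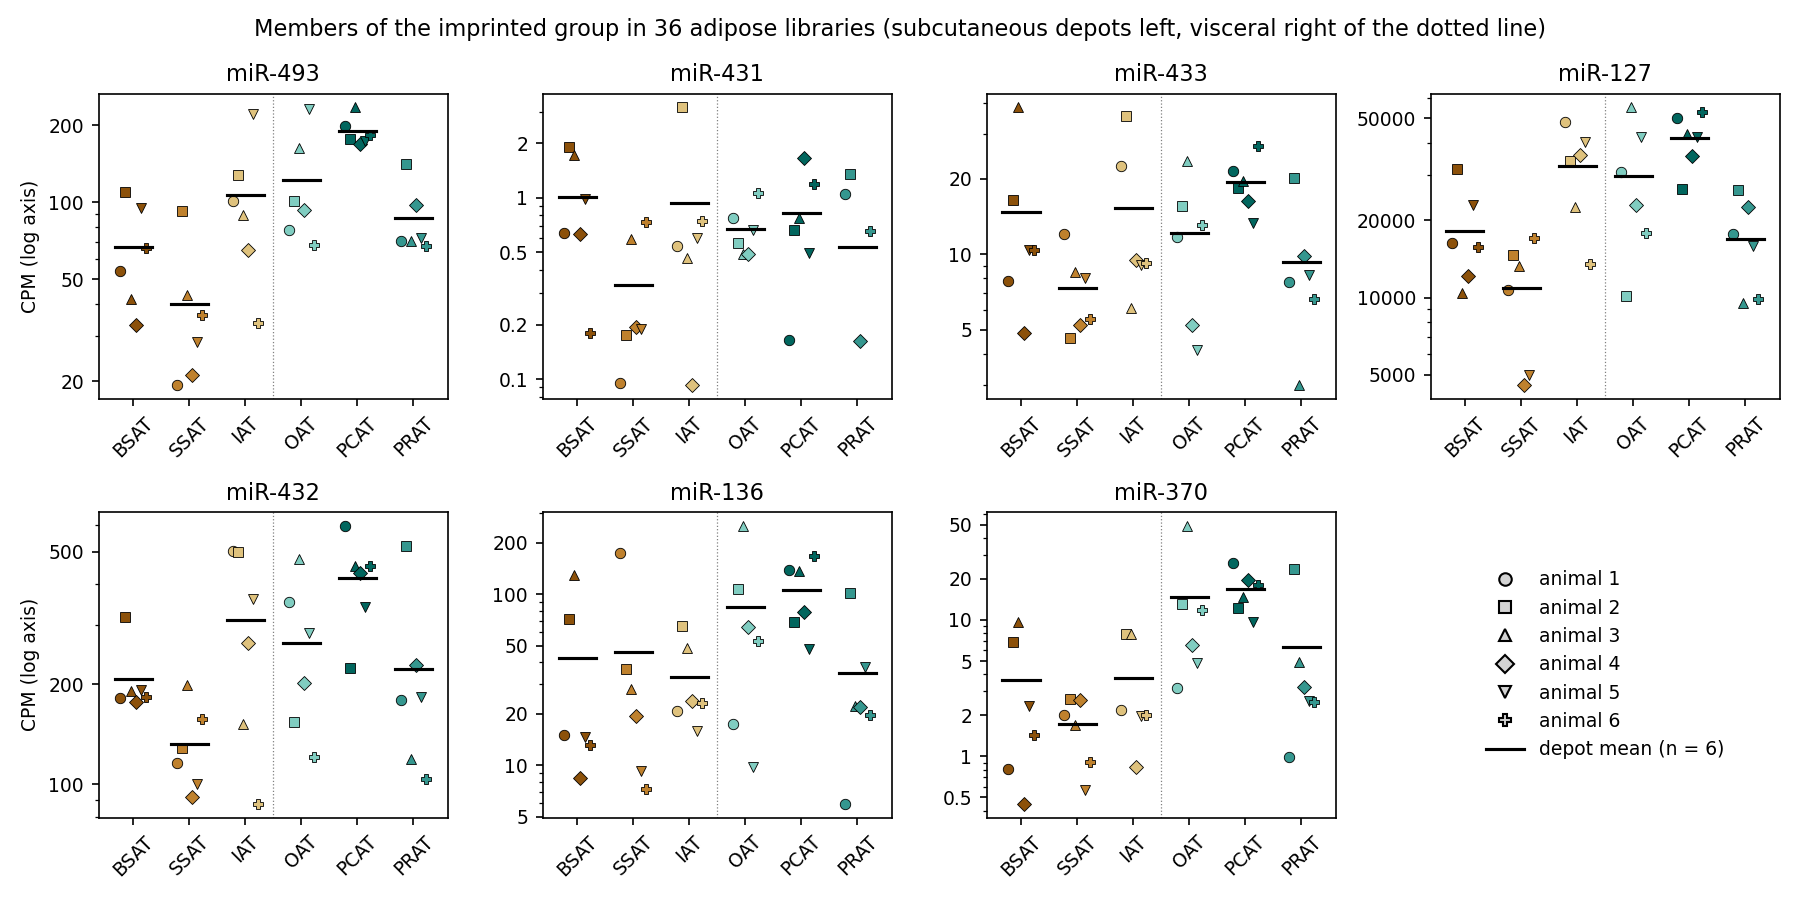
Level of each tested member in CPM (log axis) by depot, 1 point per library, shape by animal, line at the depot mean (n = 6). PCAT sits highest for 6 of the 7 members and SSAT lowest for 6. The 2 libraries of PRAT with 0 counts of miR-431 cannot be drawn on a log axis.

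miR-493 is an miRNA of the stretch between MEG3 and RTL1 and is reported in human cells to target the receptor IGF1R. Its lowest, median and highest levels were 169, 181 and 235 CPM in PCAT, 68.1, 97.2 and 231 CPM in OAT, and 67.4, 71.7 and 141.3 CPM in PRAT. In the subcutaneous depots they were 33.8, 95.1 and 222 CPM in IAT, 33.1, 60.1 and 110.1 CPM in BSAT, and 19.3, 32.3 and 92.7 CPM in SSAT. PCAT was the tightest depot, with a coefficient of variation of 13.0%, and no PCAT library reached down to any SSAT or BSAT library. miR-493 was the member whose depots were most clearly ordered: PCAT lay above OAT by 0.76 in mean log2 CPM (spread 0.49) and BSAT above SSAT by 0.82 (spread 0.75), the spread being the root mean square of the SDs of both depots. Its other neighbours in the order PCAT, OAT, IAT, PRAT, BSAT, SSAT differed by less than their spread.

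miR-127, antisense to RTL1, guides cleavage of the Rtl1 transcript in mouse and is reported in human cells to target BCL6. Its lowest, median and highest levels were 26356, 42808 and 52910.4 CPM in PCAT, 10108, 26851 and 54998 CPM in OAT, and 9549.6, 16752 and 26146 CPM in PRAT. The inguinal depot had 13509, 34959.5 and 48278 CPM, the back 10403, 16009.6 and 31566 CPM, and the sternum 4557, 11999 and 17114 CPM. IAT thus stood with PCAT and OAT at the upper end, and PRAT with BSAT near the lower end. The depot means spanned 3.84-fold, 41756 ± 9670.5 CPM in PCAT against 10885 ± 5166 CPM in SSAT (SD, n = 6 each).

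miR-432, which lies next to miR-127, had the same depot order as miR-127: PCAT, IAT, OAT, BSAT, PRAT, SSAT. It had 222.8, 442 and 597 CPM (lowest, median, highest) in PCAT, 120.4, 243 and 477 CPM in OAT, and 104, 181 and 519 CPM in PRAT. In IAT it had 87.5, 313 and 502 CPM, in BSAT 176, 187 and 317 CPM, and in SSAT 91.9, 122.3 and 198 CPM. The IAT libraries spread over nearly the whole range of the study, while 5 of the 6 BSAT libraries lay between 176 and 192 CPM.

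miR-433 and miR-431 are also antisense to RTL1, miR-433 being reported in human cells to target FGF20 and miR-431 in mouse satellite cells to target Pax7. miR-433 had 13.4, 18.9 and 26.9 CPM (lowest, median, highest) in PCAT and 4.64, 6.74 and 12.1 CPM in SSAT. In the other depots its medians were 12.4 CPM in OAT, 10.35 CPM in BSAT, 9.34 CPM in IAT and 7.98 CPM in PRAT, with single libraries up to 38.4 CPM. PCAT and SSAT did not overlap for miR-433, but every other depot overlapped both of them. miR-431 was near the limit of detection, with at most 40 counts in a library, 0 counts in PRAT3 and PRAT5, and depot medians of 0.191 CPM in SSAT to 0.816 CPM in BSAT. It was the member for which PCAT was not the highest depot.

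miR-136, the last of the RTL1-antisense miRNAs, had coefficients of variation of 44.5% to 139.5% within depots. The 139.5%, in SSAT, was the highest of any member in a depot. miR-370 varied more than miR-136 in IAT (84.3%), OAT (116.7%) and PRAT (136.1%), and miR-431 did in IAT (118.7%), PCAT (64.3%) and PRAT (107.5%). In IAT, where miR-136 had 59.3%, miR-433 (74.8%) and miR-493 (61.0%) varied more as well. The lowest, median and highest levels of miR-136 were 48.0, 107.4 and 167 CPM in PCAT, 9.79, 58.8 and 250.9 CPM in OAT, and 5.96, 22.0 and 101 CPM in PRAT. The subcutaneous depots had 15.9, 23.5 and 65.3 CPM in IAT, 7.23, 23.6 and 174 CPM in SSAT, and 8.37, 14.8 and 130.4 CPM in BSAT. In SSAT the highest level came from 1 library, SSAT1, and the other 5 stayed at or below 36.5 CPM, so the SSAT mean in CPM was above the BSAT, PRAT and IAT means.

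miR-370, which lies toward MEG8, is reported to target CPT1A, the gate to mitochondrial fatty acid oxidation, in human liver cells. It had 9.73, 16.5 and 26.3 CPM (lowest, median, highest) in PCAT, 3.19, 9.17 and 48.9 CPM in OAT, and 0.981, 2.88 and 23.6 CPM in PRAT. The 3 subcutaneous depots all had medians near 2, with 0.832, 2.09 and 7.88 CPM in IAT, 0.450, 1.89 and 9.72 CPM in BSAT, and 0.564, 1.85 and 2.63 CPM in SSAT. The depot means spanned 9.69-fold, 16.8 ± 5.91 CPM in PCAT against 1.73 ± 0.856 CPM in SSAT (SD, n = 6 each), the widest ratio of the 7 members. Across all members, 2 of 35 neighbouring pairs of depots in the orders of level differed by more than their spread, both of miR-493.

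Whether a member varied over the 6 depots at all was asked with an F test of edgeR's quasi-likelihood fit with Benjamini-Hochberg adjustment over all 667 features tested, called below 0.05. Of the 7 members 4 were called, where 13.9% of all features tested were. These were miR-493 (adjusted p = 0.00246), miR-127 (0.00266), miR-370 (0.00744) and miR-432 (0.0390). miR-433 (0.209), miR-136 (0.311) and miR-431 (0.578) did not pass. The call of miR-432 was lost with RLE factors in place of TMM (adjusted p = 0.0607), with no filter on low counts (0.0691), without any 1 of 27 libraries (up to 0.114) and without animal 1, 4 or 5 (up to 0.285). Without animal 1 the call of miR-127 was lost (0.0552) and without animal 6 that of miR-370 (0.0626). Of the 31 tested miRNAs listed from the neighbouring miR-379 to miR-656 cluster, 11 were called. In bulk tissue fewer cells that hold an miRNA and less of it per cell cannot be told apart, here or in the comparisons that follow.

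SSAT, the lowest depot for 6 of 7 members, was compared with the mean over the other 5 depots. Of the 7 members 4 fell in SSAT, where 3.75% of all features tested fell (9.3% were called in either direction). The log2 difference was -1.42 ± 0.34 for miR-493 (SE, adjusted p = 0.00717), -1.27 ± 0.31 for miR-127 (0.0113), -1.06 ± 0.32 for miR-432 (0.0367) and -2.08 ± 0.66 for miR-370 (0.0418). The sternal fat was the lower one in 6 of 6 animals for miR-493, miR-127 and miR-370, and in 5 of 6 for miR-432. miR-433 had -0.91 ± 0.40 (0.150), lower in 6 of 6 animals, miR-431 had -1.21 ± 0.66 (0.257) and miR-136 had -0.22 ± 0.59 (0.860), and none of these passed. The median log2 difference of the 7 was -1.21, against -0.11 over all features tested. The call of miR-370 was lost without any 1 animal (adjusted p 0.0767 to 0.104), and those of miR-493 and miR-127 without animal 1, 4 or 5 (up to 0.0835), which left 0 members called. Among the letter B libraries alone miR-432 (0.0514) and miR-370 (0.0506) did not pass. The call of miR-432 was also lost without animal 1, 2, 4 or 5 (up to 0.195) and without any 1 of 18 libraries (up to 0.139). That of miR-370 was lost without any 1 of the 6 SSAT libraries (up to 0.106). Without SSAT1, SSAT2, SSAT4, SSAT5 or SSAT6, 2 members were called.

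PCAT was the highest depot for 6 of 7 members, and 4 of them rose there against the mean of the other 5 depots, where 6.75% of all features tested rose (9.15% were called in either direction). The log2 difference was 1.27 ± 0.27 for miR-493 (SE, adjusted p = 0.00195), 1.06 ± 0.26 for miR-127 (0.00640), 1.84 ± 0.49 for miR-370 (0.0107) and 0.93 ± 0.28 for miR-432 (0.0252). PCAT was the higher one in 6 of 6 animals for miR-493, miR-127 and miR-370 and in 5 of 6 for miR-432. miR-136 had 1.238 ± 0.53 (0.163), miR-433 had 0.77 ± 0.35 (0.178) and miR-431 had 0.34 ± 0.57 (0.787). With the animal as a block miR-136 was called too (1.56, adjusted p = 0.0266), which made 5 members. The median of the 7 was 1.06, against -0.01 over all features tested.

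The PCAT calls depended on single libraries and animals. That of miR-432 was lost without any 1 of 25 libraries (adjusted p up to 0.167), and that of miR-127 without PCAT3 or PCAT6 (up to 0.0768), which left 2 members called. Without animal 1 or 5 the call of miR-127 was lost as well (up to 0.0674), without animal 1, 3, 4, 5 or 6 that of miR-432 (up to 0.169) and without animal 1, 4, 5 or 6 that of miR-370 (up to 0.0883), and 1 to 4 members stayed called over the 6 animals left out. Between PCAT and SSAT the ranges did not overlap for 5 of 7 members, miR-493, miR-433, miR-127, miR-432 and miR-370, against 7.95% of all features tested. PCAT was the highest and SSAT the lowest depot for 6 of the 7 members each, so this pair favours the members. The 2 shares therefore cannot be weighed against each other. The PCAT and SSAT comparisons share libraries, since each depot is among the other 5 of its counterpart.

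**Figure D2:**
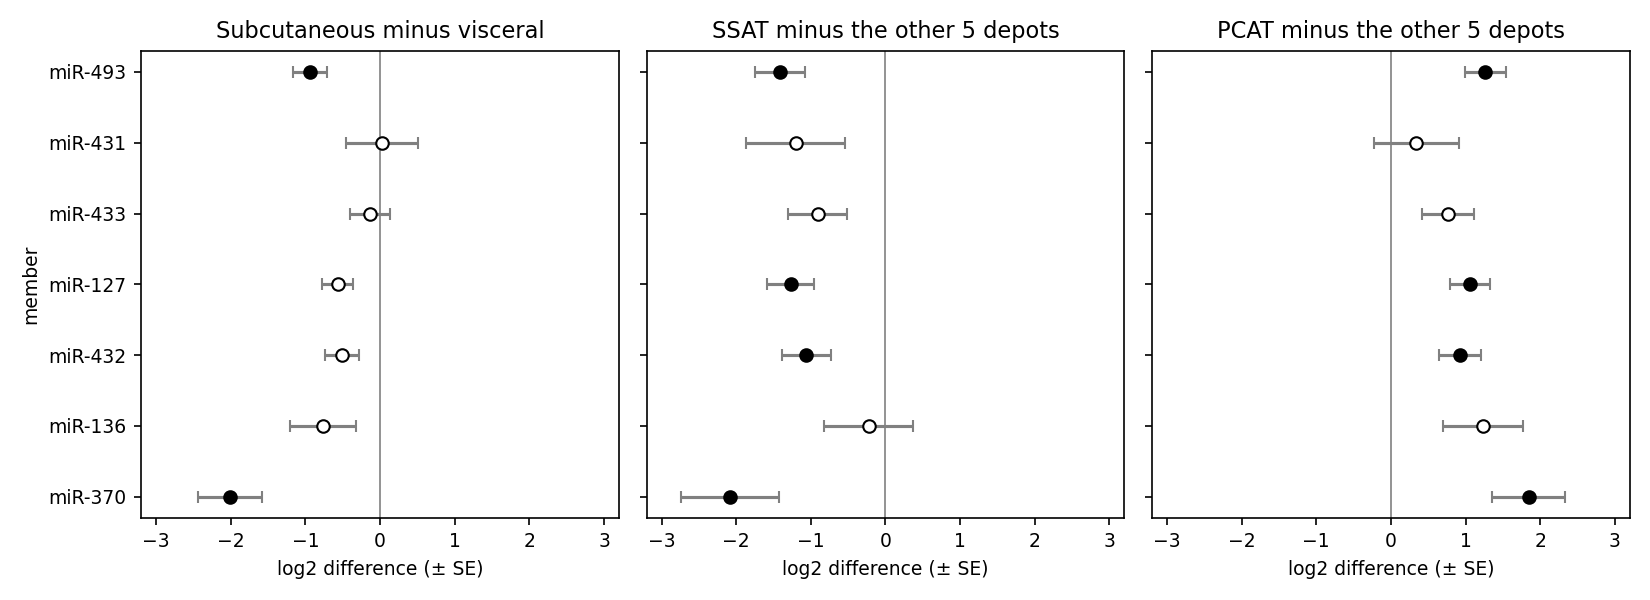
Fitted log2 difference (point) with its SE (bar) for each tested member in 3 comparisons; filled points passed an adjusted p of 0.05. miR-493 and miR-370 are below 0 for subcutaneous against visceral, and miR-493, miR-127, miR-432 and miR-370 are below 0 for SSAT and above 0 for PCAT.

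Marker lists of other cell types were set beside these depots. The skeletal and cardiac muscle list (miR-1, miR-133a, miR-133b, miR-206, miR-208b and miR-499, all 6 counted) summed to 83.5 to 303 CPM in PCAT and to 35.9 to 58.2 CPM in SSAT, so these depots did not overlap, and miR-208b was at 0 in 19 of 36 libraries. The epithelial list (miR-141, miR-200a, miR-200b, miR-200c, miR-205 and miR-429, all 6 counted) summed to 5.17 to 506 CPM in PCAT, median 272 CPM, and to 5.43 to 26.5 CPM in SSAT, median 7.23 CPM, with miR-205 at 0 in 13 libraries. The leukocyte list summed to 3078 to 9985 CPM in PCAT and to 1582 to 6721 CPM in SSAT. The erythroid list (miR-144, miR-451 and miR-486, all 3 counted) summed to 24292 to 91496 CPM in PCAT, median 34611 CPM, and to 8231 to 35035.5 CPM in SSAT, whose median of 17042 CPM was the lowest of the 6 depots. Medians were lower in PCAT than in SSAT for smooth muscle and stroma (miR-143, miR-145, miR-199a, miR-199b and miR-214), at 21987 against 26858 CPM. The same held for the adipose-enriched list (22464 against 27299 CPM), the endothelial miR-126 (20999 against 21436 CPM) and the neural list (213.3 against 216 CPM). The liver miR-122 had medians of 0.391 CPM in PCAT and 0.277 CPM in SSAT. The part of these lists in the members' levels was not tested. The muscle list reached higher sums in BSAT2 (2949 CPM), PRAT6 (1296 CPM) and OAT6 (397 CPM) than in any PCAT library, and across 36 libraries its correlation with the members' mean level was 0.21, or -0.02 once depot means were removed. For the epithelial list this correlation was 0.32, or 0.04 with depot means removed, for the leukocyte list -0.13, or -0.46, and for the erythroid list 0.13, or 0.02. It was -0.29, or -0.18, for smooth muscle and stroma, -0.28, or -0.29, for the neural list and -0.25, or -0.18, for the adipose-enriched list. The liver list had -0.07, or -0.15, and the endothelial list -0.06, or 0.20.

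None of the 4 other depots stood apart by edgeR's test for any member against the mean of the other 5. In IAT 0 of 7 members were called, where 0.3% of all features were. In OAT 0 were called of 1.5%, in BSAT 0 of 2.25% and in PRAT 0 of 3.15%. At an unadjusted p below 0.05, 1 member in IAT, 1 in OAT, 0 in BSAT and 0 in PRAT passed. These were miR-127 in IAT (0.62 ± 0.27, adjusted p = 0.608) and miR-370 in OAT (1.62 ± 0.49, adjusted p = 0.0849). DESeq2 called 1 member in OAT, miR-370 (1.67, adjusted p = 0.0344), and 0 in the other 3 depots. Without OAT3 the fitted difference of miR-370 in OAT was 0.77, and without BSAT3, IAT3, OAT1 or PRAT2 it was called (adjusted p down to 0.0191).

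The comparison that the series was designed for, subcutaneous against visceral, gave 2 called members, miR-370 and miR-493, both lower in subcutaneous fat, where 16.5% of all features tested were called and 9.3% were lower. miR-370 was at 3.04 ± 2.90 CPM in the subcutaneous libraries and at 12.6 ± 11.9 CPM in the visceral ones (mean ± SD, n = 18 each), a log2 difference of -2.01 ± 0.43 (SE, adjusted p = 0.00143), and was lower in 6 of 6 animals. miR-493 was at 71.1 ± 50.2 CPM in the subcutaneous libraries and at 132.8 ± 59.2 CPM in the visceral ones, a log2 difference of -0.94 ± 0.23 (adjusted p = 0.00532), also lower in 6 of 6 animals. The classes overlapped for both. For miR-370, 10 of 18 visceral libraries lay above every subcutaneous one and 5 of 18 subcutaneous libraries below every visceral one. For miR-493 these counts were 2 and 11. They were not made for features outside the group. With counts summed per animal and class and the animal as a block, so that 6 animals were the replicates, miR-493 was not called (-0.90, adjusted p = 0.0541).

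Markers of other cell types also differed between the classes. The epithelial list summed to 3.81 to 79.0 CPM in subcutaneous libraries, median 6.47 CPM, and to 5.17 to 2816 CPM in visceral ones, median 129 CPM. The leukocyte list had a median of 4482 CPM (1582 to 26063) in subcutaneous and 8309 CPM (3078 to 47089) in visceral libraries, and the muscle list had 62.8 CPM (23.6 to 2949) in the subcutaneous and 109 CPM (50.8 to 1296) in the visceral ones. Their part in the class differences was not tested.

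With TMM scaling and all libraries the most abundant member was not called between the classes. miR-127 was at 20494.5 ± 12515 CPM in the subcutaneous libraries and at 29477 ± 15159.6 CPM in the visceral ones, with -0.57 ± 0.21 in log2 (adjusted p = 0.0614), and was lower in 5 of 6 animals. miR-432 had -0.51 ± 0.22 (0.113), miR-136 had -0.76 ± 0.44 (0.236), miR-433 had -0.14 ± 0.27 (0.763) and miR-431 had 0.03 ± 0.48 (0.983). The median of the 7 was -0.57, against -0.09 over all features tested, and library totals in place of TMM scaling moved that overall median to -0.29. With library totals miR-127 (-0.77, adjusted p = 0.00607) and miR-432 (-0.71, 0.0195) were called, as they were by limma on log2(RPM + 1) (-0.79, 0.00707, and -0.68, 0.0287). With TMM scaling both were called without IAT (adjusted p = 0.00724 for miR-127 and 0.0184 for miR-432) or without PRAT (0.00598 and 0.0262). miR-127 was also called without animal 2 (0.0249) and without BSAT2 or OAT2 (down to 0.0344). The calls of miR-493 (-0.59, adjusted p = 0.161) and miR-370 (-1.61, 0.0585) were lost with SSAT left out. Over all features tested, 30 of 657 were then called, against 110 of 667 with all depots. Without PCAT miR-493 was not called (-0.65, 0.108), and among letter B libraries alone it had -0.84 (0.0679) and miR-370 had -1.76 (0.0118).

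IAT, a subcutaneous depot, and PRAT, a visceral depot, ranked apart from the rest of their class for miR-127 and miR-432. IAT averaged 32423 ± 12500.1 CPM of miR-127, above OAT (29763 ± 16524 CPM) and PRAT (16912 ± 6658 CPM) among the visceral depots. Leaving out a depot moves the class difference by construction: with each of the 6 depots left out in turn it ran from -0.95 (without IAT) to -0.20 (without SSAT) for miR-127 and from -0.79 to -0.20, without the same depots, for miR-432.

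**Figure D3:**
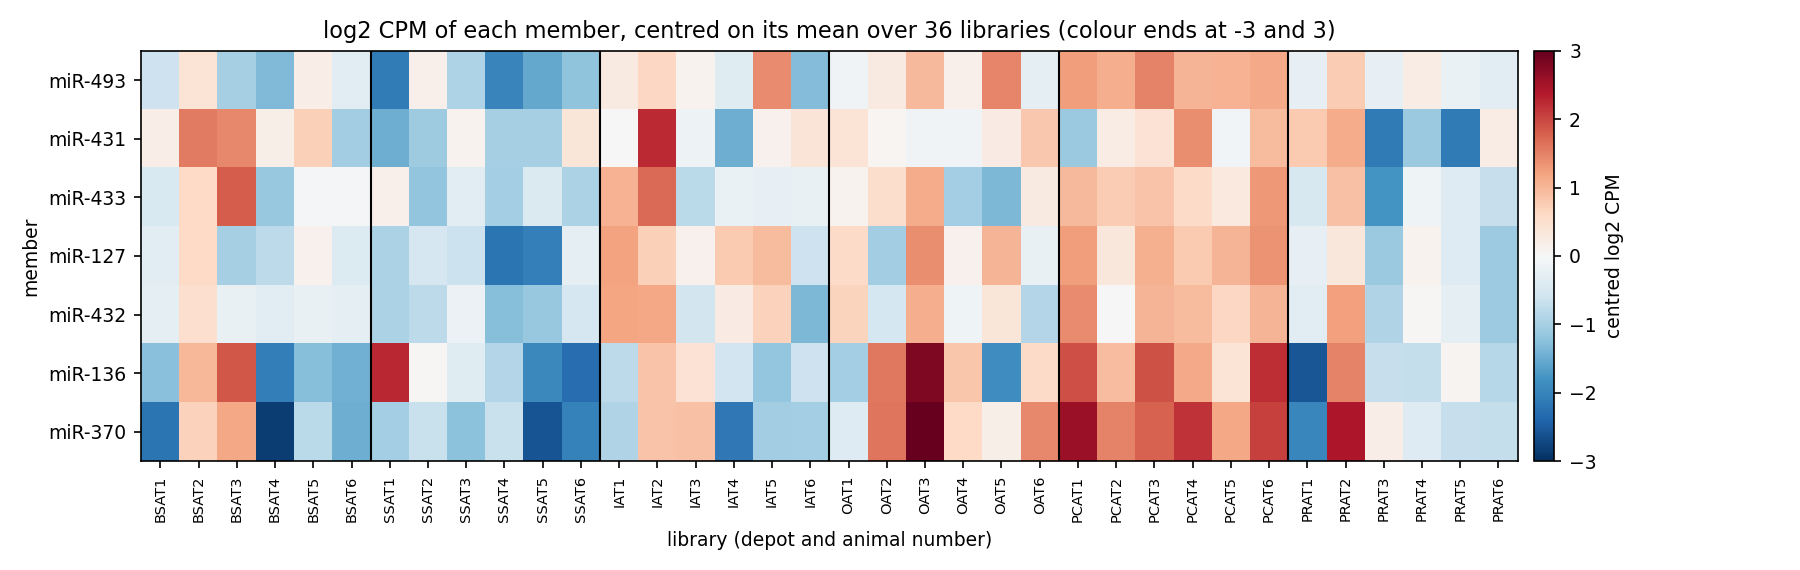
Level of each tested member in each of the 36 libraries, as log2 CPM minus the member's mean over all libraries, with libraries in columns grouped by depot. The PCAT columns are above the mean for most members and the SSAT columns below it, while IAT, OAT, BSAT and PRAT vary from animal to animal.

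Because the members come from neighbouring transcripts, their levels were also given relative to miR-127 within each library, a ratio that does not depend on library scaling. miR-370 had 0.195 ± 0.228 reads per 1000 miR-127 reads in subcutaneous and 0.436 ± 0.333 in visceral fat (SD, n = 18 each). The paired log2 difference was -1.35 ± 0.62 (SD over 6 animals), lower in 6 of 6 animals, with p = 0.03125 by an exact two-sided sign-flip permutation test, the smallest that 6 animals can give. Adjusted over the 6 ratios tested it was 0.188 and did not pass. With 6 animals no ratio could pass this adjustment unless several reached the smallest p together. The adjusted value therefore cannot decide on a single ratio. miR-493 had 3.63 ± 1.34 reads per 1000 in subcutaneous and 4.99 ± 1.82 in visceral fat, with -0.47 ± 0.31, lower in 5 of 6 animals (exact permutation p = 0.0625, adjusted 0.188). miR-432 kept near 11.2 ± 3.79 reads per 1000 miR-127 reads over all 36 libraries, with a class difference of 0.11 ± 0.28 (exact permutation p = 0.344, adjusted 0.412).

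**Figure D4:**
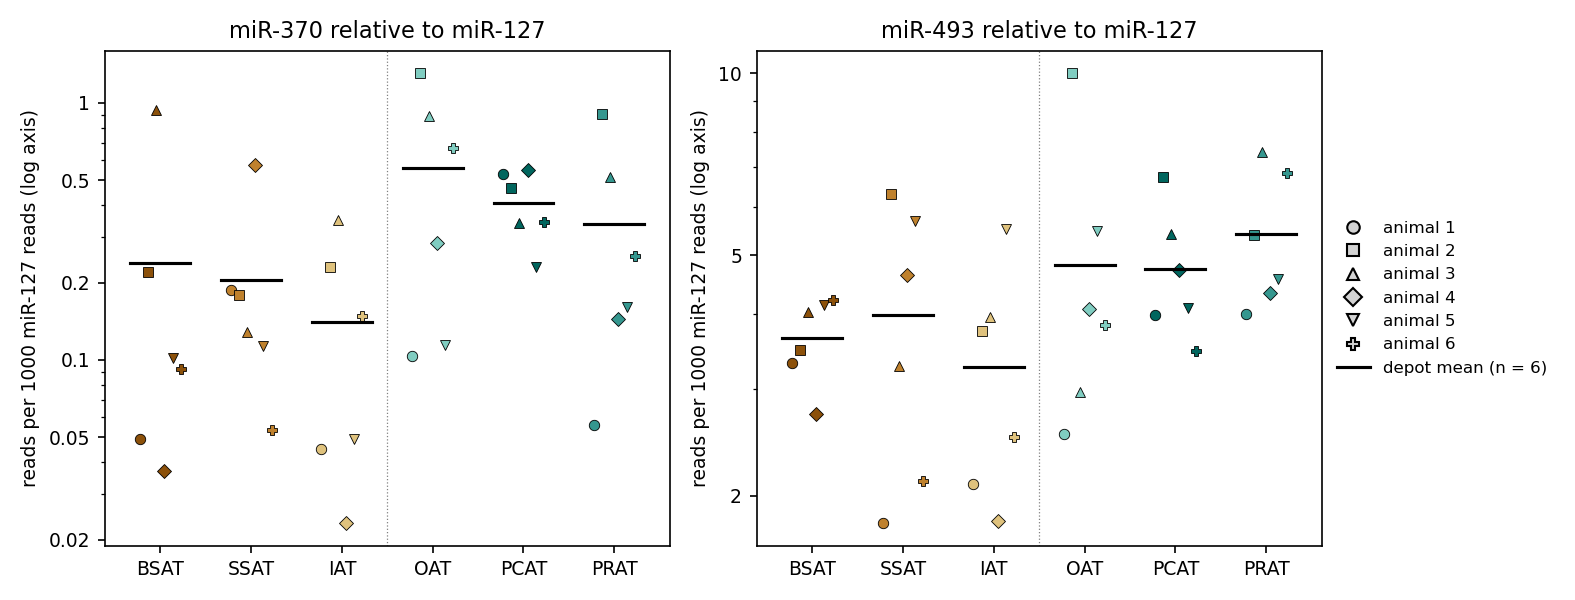
Reads of miR-370 and of miR-493 per 1000 reads of miR-127 (log axis), 1 point per library, shape by animal, line at the depot mean (n = 6). For miR-370 the depot means are highest in OAT and PCAT and lowest in IAT.

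The members did not all vary together across libraries. Over 36 libraries, which share depots, animals and scaling, Pearson's r of log2 CPM ran from 0.16 to 0.88 over the 21 pairs of members, with a median of 0.49. The closest pair was miR-127 and miR-432 (0.88, or 0.81 with depot means removed), followed by miR-136 and miR-370 (0.83, or 0.82) and miR-493 and miR-127 (0.82, or 0.67). miR-127 and miR-136, both antisense to RTL1, had 0.34, or 0.07 with depot means removed. miR-433 was closest to miR-136 (0.67), ahead of miR-432 (0.63) and miR-370 (0.59). miR-431 had no r above 0.51 with any other member, at the lowest counts of the 7.

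**Figure D5:**
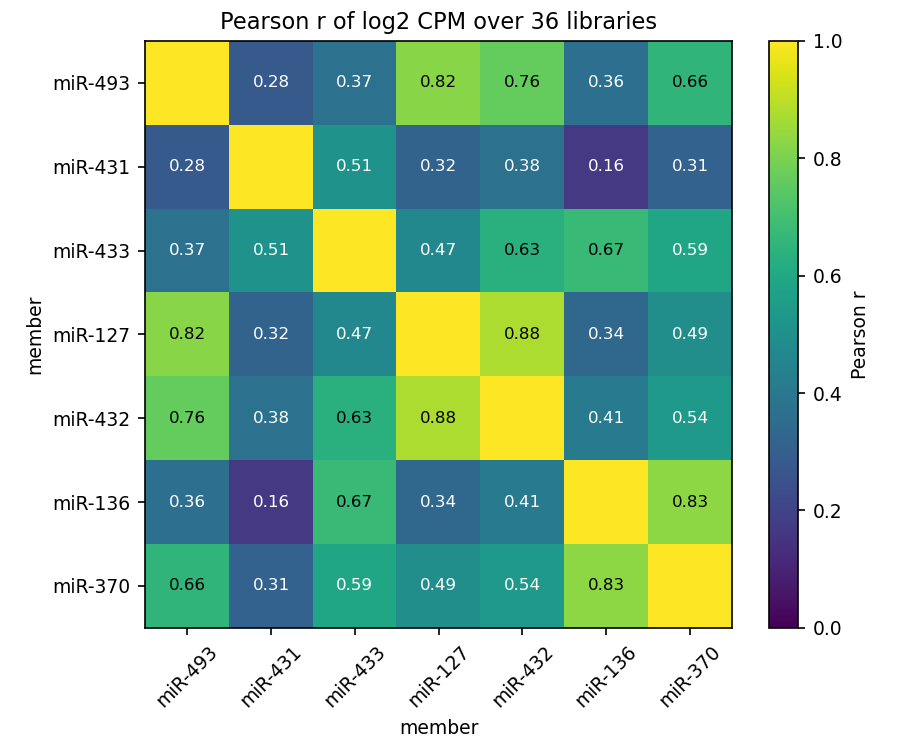
Pearson's r of log2 CPM over 36 libraries (colour and number) for each pair of the 7 tested members, members on both axes. The highest values are those of miR-127 with miR-432 (0.88) and of miR-136 with miR-370 (0.83), and the row of miR-431 holds the lowest (0.16).

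The members were also compared between animals. In an F test over the 6 animals, chosen after the data were seen and with depot in the model, miR-370 was the 1 member of 7 called (adjusted p = 0.0165), where 11.7% of all features tested were called, so the share of members called was near that of features in general. It averaged 14.7 ± 17.4 CPM in animal 3 and 11.1 ± 7.22 CPM in animal 2, and 3.66 to 6.13 CPM in the other 4 animals (SD, n = 6 depots). The mean of animal 3 rested on OAT3, at 48.9 CPM. Without the highest library of each animal the means were 7.80 CPM in animal 3, 8.56 CPM in animal 2 and 1.83 to 3.73 CPM in the others, and without OAT3 the adjusted p was 0.0344. miR-136 had its highest means in the same animals, 102.6 ± 88.2 CPM in animal 3 and 75.2 ± 26.0 CPM in animal 2, and did not pass (0.105), but was called without SSAT1 (0.00893). For miR-127 the animal means lay between 21135 and 28945 CPM and the adjusted p was 0.916.

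The neighbouring miR-379 to miR-656 cluster, read from the same maternal chromosome, was set beside the group as a list of 46 features in the table, 31 of them tested. In PCAT 15 of the 31 rose (6.75% of all features tested did), led by miR-411c-5p (1.47 ± 0.26, adjusted p = 2.07e-04) and miR-381 (1.56 ± 0.30, 5.93e-04). The median log2 difference of the 31 was 0.99, against -0.01 over all features tested. In SSAT 8 fell (3.75% of all features tested did), among them miR-381 (-1.75 ± 0.39, 0.00549) and miR-411a (-1.18 ± 0.27, 0.00600). The median of the 31 was -0.84, against -0.11 over all features tested. In subcutaneous against visceral fat 7 fell (9.3% of all features tested did), led by miR-411c-3p (-1.44 ± 0.28, 5.43e-04). The median of the 31 was -0.48, against -0.09 over all features tested. In the F test over animals 0 of the 31 were called by edgeR, where 11.7% of all features tested were, with 8 of the 31 at an unadjusted p below 0.05.

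Of the 660 features outside the group, those most like the mean of the 7 members over 36 libraries were sought by Pearson's r of log2 CPM. The closest was a candidate locus without a miRNA name, NC_059176.1_40497, with r 0.88 (Spearman's rho 0.87, r with depot means removed 0.79) and a mean of 1810.1 CPM. miR-381 (r 0.86), miR-411c-5p (0.85), miR-487b (0.79) and miR-544a (0.78) followed, all of the neighbouring cluster, and 15 of the 20 closest were on its list. The median r was 0.64 for the 31 cluster miRNAs and 0.04 for the other features, over libraries that share depots, animals and scaling.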

How the data were processed

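The labels give each library's depot and animal. The authors deposited whole-number read counts per feature, not normalized, with RPM values (counts over the library total) in a table of their own, also deposited; the RPM equalled that ratio, rescaled, within 4.79e-06. Per the labels' protocols, RNA came from the RNeasy Lipid Tissue Mini Kit. The aligner, the miRNA caller and the build: not given in the sources used here. Per the submitters' processing notes, DESeq2 1.24.0 was among the tools, with no role stated. A blank row (1, with 0 counts) was left out, and 0 columns belonged to other samples. No 2 libraries agreed within sampling noise. The members and lists were chosen with earlier results of these data known, and every row of the rule is named. Likeness names the 5 highest, and the cluster list up to 3 by p.

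Counts were tested with edgeR 4.0.16 in R 4.3.3: quasi-likelihood test, TMM factors (0.745 to 1.26), filterByExpr (minimum count 10), 1 coefficient per depot, 30 residual degrees of freedom, two-sided, Benjamini-Hochberg over 667 features, threshold 0.05. The biological coefficient of variation was 0.731. The SE is the log2 difference over the root of its F. log2 CPM used a prior count of 2. Alternatives were RLE factors, library totals, no filter, at least 10 CPM on average, the animal as block, the letter as covariate, letter B alone, limma 3.58.1 on log2(RPM + 1), DESeq2 1.42.0, 2 groups of 18, sums per animal and class, and left-out animals. Left-out libraries were planned for subcutaneous against visceral and for the F test over depots. Chosen after seeing the data were left-out depots, left-out libraries in the other comparisons, the test over animals and the ratio to miR-127. The overlap of the PCAT and SSAT ranges was not among the planned comparisons. Every depot came from the same 6 animals, whose number therefore pairs libraries: deviations from depot means correlated by 0.198 within and -0.0392 between animals, over 0.1 in 64 of 90 pairs. Fits were tested on simulated counts. Python 3.11.15 and pandas 2.3.3 did the rest.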

Additional observations from a re-analysis of the deposited data

Results flagged for a closer look

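In 42 groups of 6 libraries (7 members, 6 depots), a library was singled out when its gap to the nearest other library was, over the depot's range, above Dixon's critical value. For independent groups of normally distributed values chance does this in about 1 in 20. The levels here were CPM without logs and the groups share libraries, so no excess can be read against that rate. It happened in 9 groups, always at the high end. PRAT2 appeared for 3 members: miR-432 at 519 CPM (others 104 to 228), miR-136 at 101 CPM (others 5.96 to 37.7) and miR-370 at 23.6 CPM (others 0.981 to 4.92). PRAT2 also held the highest summed level of the epithelial list, 2816 CPM, whose part was not tested. BSAT2 had 317 CPM of miR-432 (others 176 to 192), beside 2949 CPM of the muscle list. miR-493 was at 92.7 CPM in SSAT2 (others 19.3 to 43.6), miR-136 at 174 CPM in SSAT1 (others 7.23 to 36.5) and miR-433 at 38.4 CPM in BSAT3 (others 4.86 to 16.4). miR-370 was at 48.9 CPM in OAT3 (others 3.19 to 13.2) and miR-431 at 3.16 CPM in IAT2 (others 0.0925 to 0.750).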

How the results depend on the processing

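Without left-out animals or libraries, 234 of 264 alternative values of single members kept their side of the threshold and, where they have one, their direction, and 36 of 53 counts of members called equalled the reported count. For subcutaneous against visceral, where 2 members were called, 4 were called with library totals, with limma, without IAT or without PRAT, 1 with a mean of at least 10 CPM (which leaves miR-370 and miR-431 untested), with letter B alone, with counts summed per animal and class, or without PCAT, and 0 without SSAT. Letter B alone left 2 members called for SSAT, where 4 were. Over depots 3 members in place of 4 were called with RLE factors, with no filter and with a mean of at least 10 CPM. For OAT, DESeq2 called 1 member and edgeR 0. Over animals, limma and library totals each called 2, and edgeR 1. The animal as a block kept 2 members called between the classes, 4 over depots, 4 for SSAT and 0 for BSAT, IAT, OAT and PRAT, and gave 5 for PCAT. The class difference of miR-431 (0.03) turned to -0.14 with library totals, -0.0467 with the block, -0.0465 with limma, -0.22 without BSAT, -0.18 without IAT and -0.17 without PRAT. That of miR-433 (-0.14) turned to 0.0612 with letter B alone, 0.20 without SSAT and 0.13 without PCAT. The cause was not tested.

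With 1 animal or library left out, the members called ranged from 2 to 3 between the classes, from 2 to 4 over depots, from 0 to 4 for SSAT (0 without an animal, 2 without a library, at the least), from 1 to 4 for PCAT, from 0 to 1 for OAT and from 1 to 2 over animals, and stayed at 0 for BSAT, IAT and PRAT. Over these the class difference of miR-431 ran from -0.28 to 0.24, the SSAT difference of miR-136 from -1.42 to 0.21 and the PCAT difference of miR-431 from -0.23 to 0.59. By animal alone the class difference of miR-431 ran from -0.19 to 0.24, and by library from -0.28 to 0.18. By library the SSAT difference of miR-136 ran from -1.30 to 0.14 and the PCAT difference of miR-431 from -0.09 to 0.47. The comparison of arms planned for these miRNAs was not run, since no member has both arms. Depth limits miR-431 and miR-665. The p-values of the main fit measure the spread of libraries within depots, with no term for the animal. The animal enters only in the block, the sums per animal and class, the test over animals and the sign-flip test.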
